A study of Mus musculus with 6 samples.

Results

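The transcripts of the salt-inducible kinases (Sik1, Sik2 and Sik3) and of the class IIa histone deacetylases (Hdac4, Hdac5, Hdac7 and Hdac9) were followed by RNA bisulfite sequencing, in which an unmethylated cytosine is read as T and a 5-methylcytosine (m5C) stays C. The 7 genes were chosen by name, of 16822 gene names in the data, and 5328 of the 5240657 listed cytosines carried one of these names. The libraries came from wild-type C57BL/6 cortical neurons, prepared from E16.5 embryos and kept for 7 days in vitro. In every group, the 0 h controls included, the neurons had been silenced overnight with 1 µM tetrodotoxin (TTX), which blocks voltage-gated sodium channels, and 100 µM DL-AP5, which blocks NMDA receptors. KCl at 55 mM then depolarized them, and RNA was taken before KCl (0 h) and after 2 h or 6 h of it, with 2 libraries at each time. Whether the 2 libraries of a time came from separate cultures is not in the labels, so the p-values for coverage measure the spread between these libraries, while those for single cytosines, from reads summed over replicates, measure counting error and leave that spread out.

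SIKs are serine/threonine kinases of the AMPK-related family. They are activated by the kinase LKB1, encoded by Stk11, and are held back when protein kinase A (PKA) phosphorylates them. Class IIa HDACs are corepressors of the MEF2 transcription factors with little catalytic activity of their own. SIKs and calcium/calmodulin-dependent kinases phosphorylate them, 14-3-3 proteins bind the phosphorylated form, and the complex stays in the cytoplasm. SIKs phosphorylate the CRTC coactivators of CREB in the same way, and Sik1 is itself known as a CREB target gene.

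A library listed 1559828 to 2374392 cytosines with at least 1 unconverted read and at least 10 reads, with a median coverage of 324 to 480. The 6 h replicate 1 library listed the most positions, and its unconverted share over low-level positions of all genes was 0.152%, against 0.105% to 0.108% in the other libraries, so the differences at the Sik3 and Hdac4 cytosines between 2 h and 6 h are also given without it. Fos and Nr4a1, immediate early genes used as a check of the labels, were higher by 7.26 and 6.05 log2 units at 2 h than at 0 h. The neuronal markers Tubb3, Map2, Rbfox3, Snap25, and Syt1 were all covered. Tubb3 was lower, with log2 changes from 0 h of −0.90 at 2 h and −1.18 at 6 h (edgeR adjusted p = 5.79e-05 and 7.15e-06), Rbfox3 was at 0.32 and −0.24, Snap25 at 0.15 and 0.54, Syt1 at 0.29 and 0.10, and Map2 at −0.0873 and 0.18. The summed scaled coverage of the 5 lay between 21481 and 22340 before KCl, between 16059 and 17297 after 2 h, and between 16613 and 16683 after 6 h, and its part in the changes of the members was not tested. All 5 astrocyte markers were also covered: Slc1a3 at 892 positions, Aldh1l1 at 705, Aqp4 at 589, Gfap at 497, and S100b at 56. The scaled coverage of Gfap was 613 and 747 before KCl, against 453 and 419 for Rbfox3. Cldn5 of endothelium, Csf1r and P2ry12 of microglia, Mog of oligodendrocytes, and Sox2 of progenitors had no listed position. Other markers of the same lists were covered: Cx3cr1 of microglia at 438 positions, Olig1 and Pdgfra of the oligodendrocyte lineage at 624 and 1272, and Mki67 and Top2a of cycling progenitors at 944 and 714. At 6 h, Cx3cr1 was lower than at 0 h by a log2 change of −0.73 and Top2a by −0.60 (edgeR adjusted p = 0.00018 and 0.000642), while Mki67 was at −0.20 (edgeR adjusted p = 0.538).

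Coverage was compared over windows of 100 bases that held a listed position in all 6 libraries. For each window the median coverage of its listed positions was taken, the windows of a gene were averaged, and libraries were scaled to a common size, which multiplied them by 0.903 to 1.12. This measure covered 15 windows of Sik1, 16 of Sik2, 24 of Sik3, 9 of Hdac4, 43 of Hdac5, and 9 of Hdac9. Hdac7 had none. In bulk RNA, fewer cells of a type and less RNA per cell cannot be told apart.

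Of the 3 kinases, Sik1 was the one whose highest coverage came at 2 h. Its scaled window coverage was 131 and 117 before KCl, 549 and 573 after 2 h, and 438 and 385 after 6 h. The libraries of the 3 times did not overlap. Coverage rose 4.52-fold from 0 h to 2 h (log2 2.18 ± 0.10 SE, n = 2 per time, edgeR adjusted p = 1.9e-05), and then fell by 0.45 ± 0.095 on the log2 scale from 2 h to 6 h (edgeR adjusted p = 0.00477). At 6 h it was still 3.31-fold above the silenced cells (edgeR adjusted p = 1.23e-05). The log2 ratios of 2 h over 0 h were from 1.85 to 2.56 among the 15 windows, so the rise ran over the coding sequence and the 3′ UTR alike.

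Sik2 and Sik3 rose more slowly and were highest at 6 h. For Sik2, the scaled window coverage was 188 and 194 before KCl, 382 and 363 after 2 h, and 542 and 497 after 6 h. It rose 1.95-fold by 2 h (log2 0.96 ± 0.079 SE, edgeR adjusted p = 0.000175) and 2.72-fold by 6 h (log2 1.44 ± 0.080 SE, edgeR adjusted p = 1.13e-05). Among the 16 Sik2 windows, the log2 ratios over 0 h were from 0.47 to 1.34 at 2 h and from 1.24 to 1.93 at 6 h.

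Sik3 showed the largest rise from 0 h to 6 h among the 6 genes measured this way. Its scaled window coverage was 228 and 226 before KCl, 452 and 451 after 2 h, and 1223 and 1174 after 6 h. The replicates of a time lay close together, and the 3 times were far apart. Sik3 rose 1.99-fold by 2 h (log2 0.99 ± 0.061 SE, edgeR adjusted p = 5.95e-05), 5.28-fold by 6 h (log2 2.40 ± 0.063 SE, edgeR adjusted p = 1.76e-06), and 2.65-fold between 2 h and 6 h (edgeR adjusted p = 1.96e-05).

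**Figure D1:**
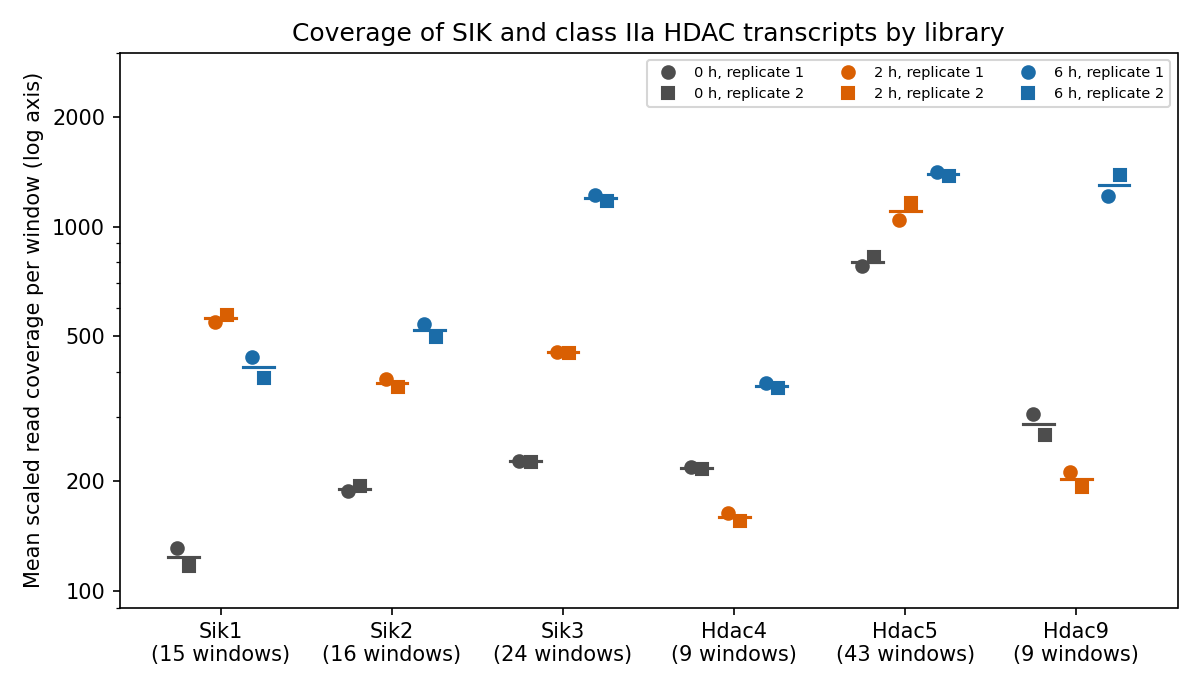
Mean scaled read coverage per 100-base window (log axis) of each gene in each library; circles are replicate 1, squares replicate 2, short bars the mean of the 2 replicates at 0 h (grey), 2 h (orange), and 6 h (blue). Sik1 is highest at 2 h, Sik2, Sik3, and Hdac5 are highest at 6 h after a rise at 2 h, and Hdac4 and Hdac9 are below the 0 h libraries at 2 h and above them at 6 h.

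The class IIa HDACs split into those that rose at both times and those that dipped first. Hdac5 was the most covered gene of the family, with a scaled window coverage of 779 and 826 before KCl, 1044 and 1163 after 2 h, and 1412 and 1378 after 6 h. It rose 1.37-fold by 2 h (log2 0.46 ± 0.068 SE, edgeR adjusted p = 0.00187) and 1.74-fold by 6 h (log2 0.80 ± 0.068 SE, edgeR adjusted p = 5.76e-05). Hdac5 was also the single gene of the 7 with at least 5 positions listed in all 6 libraries. Over those 18 positions the mean scaled coverage was 1268 and 1341, then 1576 and 1689, then 2224 and 2149. The edgeR log2 changes there were 0.32 ± 0.064 SE at 2 h (adjusted p = 0.0147), 0.75 ± 0.064 SE at 6 h (adjusted p = 0.000242), and 0.42 ± 0.064 SE from 2 h to 6 h (adjusted p = 0.00295). On leaving out 1 library at a time, the log2 change at 2 h over these 18 positions was 0.284 to 0.375. The call was lost without 0 h replicate 1 or 0 h replicate 2. Among the 2601 genes tested over such positions, 13.7%, 29.6%, and 24.5% were called higher in these comparisons.

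Hdac4 fell at 2 h and was above its starting level at 6 h. The scaled window coverage was 218 and 216 before KCl, 164 and 155 after 2 h, and 373 and 360 after 6 h. The libraries of the 3 times did not overlap. Hdac4 fell by 0.44 ± 0.087 on the log2 scale to 2 h (edgeR adjusted p = 0.00632), and at 6 h it was 1.69-fold above 0 h (edgeR adjusted p = 0.000212) and 2.30-fold above 2 h (edgeR adjusted p = 4.57e-05). Over its 9 windows, the log2 ratios over 0 h were from −0.72 to −0.0849 at 2 h and from 0.44 to 1.12 at 6 h.

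Hdac9 had the same order of times as Hdac4 with a larger late rise. Its scaled window coverage was 307 and 268 before KCl, 212 and 193 after 2 h, and 1211 and 1385 after 6 h. Hdac9 fell by 0.50 ± 0.11 on the log2 scale to 2 h (edgeR adjusted p = 0.00939), a call that was lost without 0 h replicate 1 (log2 −0.40, edgeR adjusted p = 0.073). It then rose 6.40-fold from 2 h to 6 h (log2 2.68 ± 0.11 SE, edgeR adjusted p = 1.96e-05) and ended 4.52-fold above 0 h (log2 2.18 ± 0.11 SE, edgeR adjusted p = 8.11e-06). In its 9 windows, the log2 ratios at 6 h were from 1.48 to 2.43 over 0 h and from 2.07 to 2.84 over 2 h. Olig1 and Mbp, 2 of the 4 tested genes of the oligodendrocyte lineage list, had the same dip and late rise. Olig1 was at a log2 change of −0.54 from 0 h to 2 h and 0.81 from 2 h to 6 h, and Mbp at −0.42 and 0.96, all called. Pdgfra was lower at 2 h (−0.40) and stayed lower at 6 h (−0.49 against 0 h), and Olig2 did not dip (−0.00525) and was higher at 6 h (0.39 against 0 h). In all, 3 of the 4 were called lower at 2 h and 3 higher from 2 h to 6 h, against 22.6% and 32.9% of all tested genes. Their summed scaled coverage, most of it from Olig1, lay between 2868 and 3023 before KCl, between 2154 and 2270 after 2 h, and between 3270 and 3323 after 6 h. Astrocyte markers were called lower at 6 h than at 0 h for 3 of 4 tested, against 35.3% of all genes, with a median log2 change of −0.48, and their summed scaled coverage lay between 4671 and 4695 before KCl and between 3544 and 3758 after 6 h. The part of these cells in the changes of Hdac4 and Hdac9 was not tested.

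Hdac7 could not be compared. It had 102 listed positions in all, 11 to 24 in a library, and a median coverage at them of 60 and 69 before KCl, 56 and 40.5 after 2 h, and 55 and 41 after 6 h. The highest coverage of any Hdac7 position was 131, against 4098 for Hdac5, and by that measure Hdac7 was the lowest of the 7 transcripts. By the median it was not the lowest in every library. In 2 h replicate 2, Hdac9 was at 30 and Hdac7 at 40.5. These are different positions in each library, and no change was read from them.

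The counts of members called stand against a wide background, since many genes were called in each comparison. Of the 6 members tested, 4 were called higher and 2 lower at 2 h than at 0 h, while 18.3% of the 6853 tested genes were called higher and 22.6% lower. At 6 h all 6 were called higher than at 0 h, against 33.4% of all genes higher and 35.3% lower. From 2 h to 6 h, 5 were higher and Sik1 was lower, against 32.9% and 33.1%. A call alone is therefore common. In size, the log2 change was larger than in 99.7% of tested genes for Sik1 at 2 h, and larger than in 99.8% for Sik3 and 99.6% for Hdac9 at 6 h. The Hdac5 change at 6 h was larger than in 90.5%. These ranks describe genes picked with earlier results known.

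Within Sik3, the log2 ratios at 2 h were lower in the coding windows than in the 3′ UTR windows, a difference that was not itself tested. Over its 19 windows with coding sequence, the mean scaled coverage was 262 in both libraries before KCl, 496 and 495 after 2 h, and 1398 and 1340 after 6 h. Over the 5 windows in the 3′ UTR it was 99.5 and 87.6 before KCl, 287 and 285 after 2 h, and 557 and 547 after 6 h. The log2 ratio of 2 h over 0 h was 0.92 in the coding windows, from 0.29 to 1.37 among single windows, and 1.61 in the 3′ UTR windows, from 1.48 to 1.79. The ranges did not overlap, though the ratio differed along the coding sequence as well. Counted from the 5′ end, coding windows 3 to 9 were at 0.66 to 0.86. Coding windows 17 to 19, next to the 3′ UTR, were at 1.34 to 1.37. The lowest value came from the 5′-most window, whose replicates lay far apart (58.4 and 145 before KCl, 55.1 and 194 after 2 h), and the next lowest was 0.66. At 6 h the 2 parts were closer, with log2 ratios over 0 h of 2.39 and 2.56.

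A related measure, the balance between the 5′ and 3′ sides of all 24 Sik3 windows, did not pass the test across genes. With its windows split in the middle, the log2 ratio of the 3′ side over the 5′ side was −0.94 and −1.07 before KCl, −0.44 and −0.55 after 2 h, and −0.74 and −0.87 after 6 h. The difference between 2 h and 0 h was 0.51 ± 0.099 SE, larger than in 99.2% of the 6402 tested genes (limma unadjusted p = 0.00138, adjusted p = 0.221). The limma adjusted p was 0.0792 to 0.601 under the other settings. In the other 5 members the same ratio changed by −0.19 to 0.20 log2 units, and none was called. Few genes were: 0.0156% at 2 h against 0 h, 1.17% at 6 h against 0 h, and 0.469% between 2 h and 6 h.

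**Figure D2:**
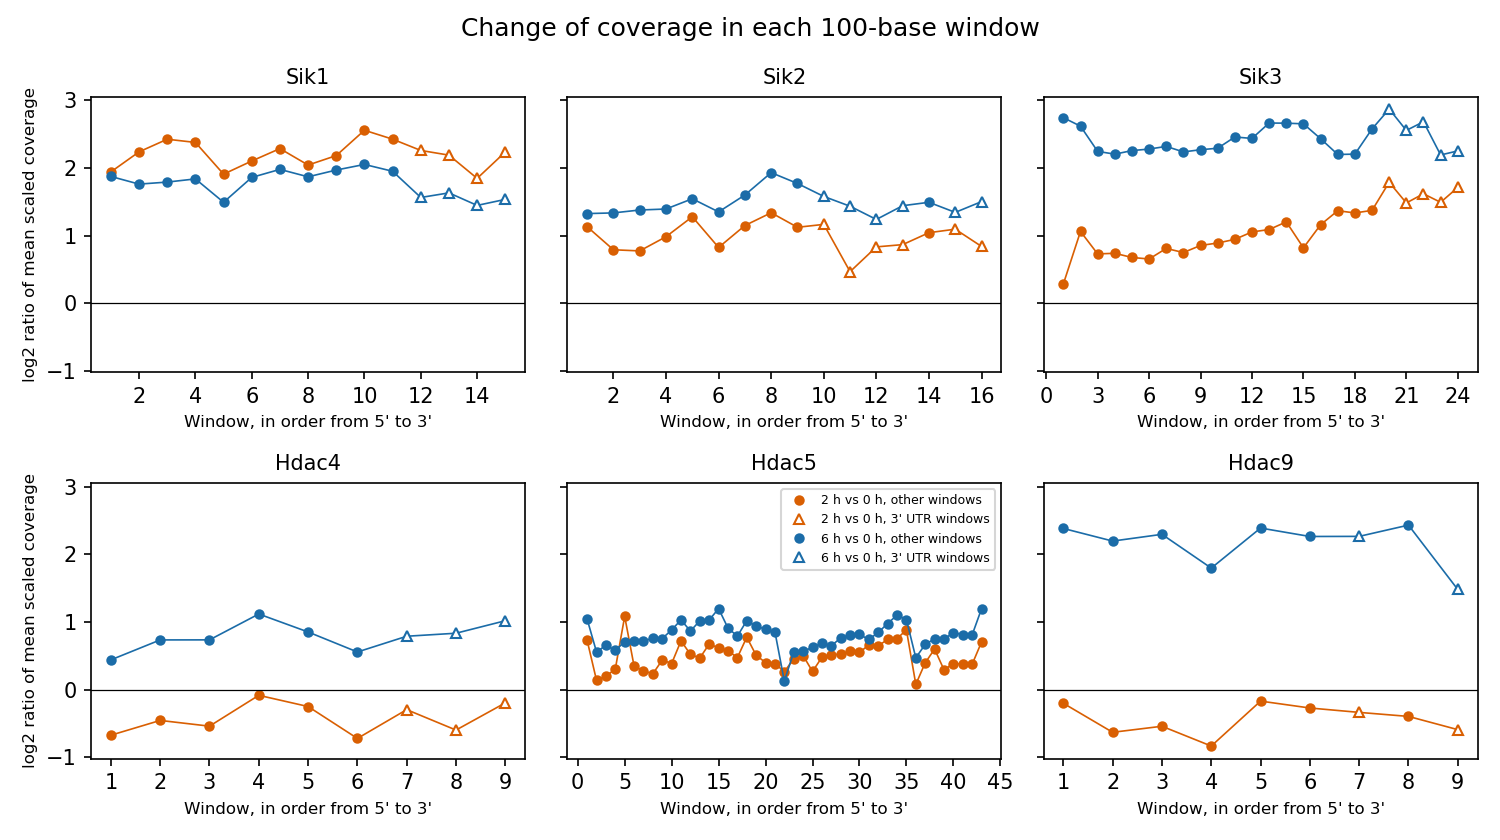
Log2 ratio of mean scaled coverage in each 100-base window over 0 h, at 2 h (orange) and 6 h (blue), with windows in order from 5′ to 3′; open triangles are windows with listed positions in the 3′ UTR alone, filled circles all others. In Sik3 the 2 h ratio is 0.29 to 1.37 in coding windows and 1.48 to 1.79 in the 3′ UTR, while at 2 h Sik1 stays within 1.85 to 2.56 and Sik2 within 0.47 to 1.34.

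Methylated cytosines were rare in these transcripts. A cytosine was taken as methylated in a library when at least 10% of its reads and at least 6 reads were unconverted. Of the 5328 listed cytosines, 4 met this in at least 1 library and 2 in both replicates of a time. That is 0.0751% and 0.0375%, where all listed positions of the series gave 0.227% and 0.0822%. The 2 positions that passed in both replicates are shown first, then the 2 that passed in 1 library. Each sequence is 21 bases of the transcript strand (GRCm38), with the cytosine in capitals.
Sik3, chromosome 9, position 46222270, plus strand: aggaaataaaCaggaaatcag
Hdac4, chromosome 1, position 91931261, minus strand: ggccgctgaaCcaaggccttt
Sik1, chromosome 17, position 31845855, minus strand: cttgggttcaCagctctccac
Sik3, chromosome 9, position 46202490, plus strand: tcatccgtccCaggagaatga

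The Sik3 cytosine at 46222270 lies in the 3′ UTR, 218 bases after the last coding base. One annotated transcript ends 5 bases further on, and the longest goes on for 1924 bases. The 6 letters just before it read AATAAA, the usual form of a polyadenylation signal, which precede 0.0218% of all listed positions and 0.0336% of those methylated in at least 1 library.

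Its methylation level was 8.16% (8 of 98 reads) and 16.48% (15 of 91) at 0 h. At 2 h it was 16.6% (55 of 331) and 14.2% (41 of 288), and at 6 h 22.2% (119 of 535) and 22.5% (155 of 688). The means were 12.3% ± 5.88, 15.4% ± 1.68, and 22.4% ± 0.202 (SD, n = 2). Both 6 h libraries were above the other 4, while the 0 h and 2 h libraries overlapped. The 95% Wilson interval, which covers counting error only, was 10.3% to 25.4% in 0 h replicate 2 and 19.6% to 25.8% in 6 h replicate 2, so those 2 libraries were not told apart.

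The position met the methylation criteria in both 2 h and both 6 h libraries but in 1 of the 2 at 0 h, so its choice favoured a higher level at the later times, and its differences from 0 h are given with no test. On summed reads its level was 10.2 percentage points higher at 6 h than at 0 h, or 5.92 points without 0 h replicate 1, and 3.34 points higher at 2 h than at 0 h. Between 2 h and 6 h, where both times met the criteria, the level was 6.90 points higher at 6 h (two-sided Fisher's exact test, adjusted p = 0.00777). It was 7.02 points higher without 6 h replicate 1 (Fisher's exact test, adjusted p = 0.03), and the call was lost without 2 h replicate 2 (5.79 points, Fisher's exact test, adjusted p = 0.177). With limma on the log ratio per library, which counts libraries and not reads, the call did not hold (limma adjusted p = 0.84). The log2 change there was 0.66, against a log2 odds ratio of 0.65 on summed reads. Of all positions tested, 5.14% were called higher and 4.78% lower from 2 h to 6 h, 4.36% higher from 0 h to 6 h, and 6.82% higher from 0 h to 2 h. Within 50 bases of this cytosine, 17 other cytosines were listed, and the highest level among them was 2.80%.

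The Hdac4 cytosine at 91931261 also lies in the 3′ UTR, 2089 bases after the last coding base. Its level was 3.23% (3 of 93 reads) and 7.84% (4 of 51) before KCl. It was 17.6% (9 of 51) and 15.9% (7 of 44) after 2 h, then 1.79% (2 of 112) and 4.96% (7 of 141) after 6 h. Both 2 h libraries were above the other 4. The means were 5.53% ± 3.26, 16.8% ± 1.23, and 3.38% ± 2.25 (SD, n = 2).

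The Hdac4 cytosine met the 10% and 6-read criteria in the 2 h libraries and in no other, so it was taken up because it was high at 2 h, and its difference from the other times is given as a description with no test. On summed reads, which held 2 to 9 unconverted reads per library, its level was 11.98 percentage points higher at 2 h than at 0 h and fell by 13.3 points from 2 h to 6 h, with a difference of −11.9 points without 6 h replicate 1. The cytosine next to it, 1 base 3′, was listed in all 6 libraries. Its level was 2.13% and 6.12% before KCl, 5.88% and 4.44% after 2 h, and 0.901% and 2.13% after 6 h. The 6.12%, 3 of 49 reads in 0 h replicate 2, was the highest level of the 5 cytosines listed within 50 bases. The unconverted share over low-level positions of all genes was 0.105% to 0.152%.

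**Figure D3:**
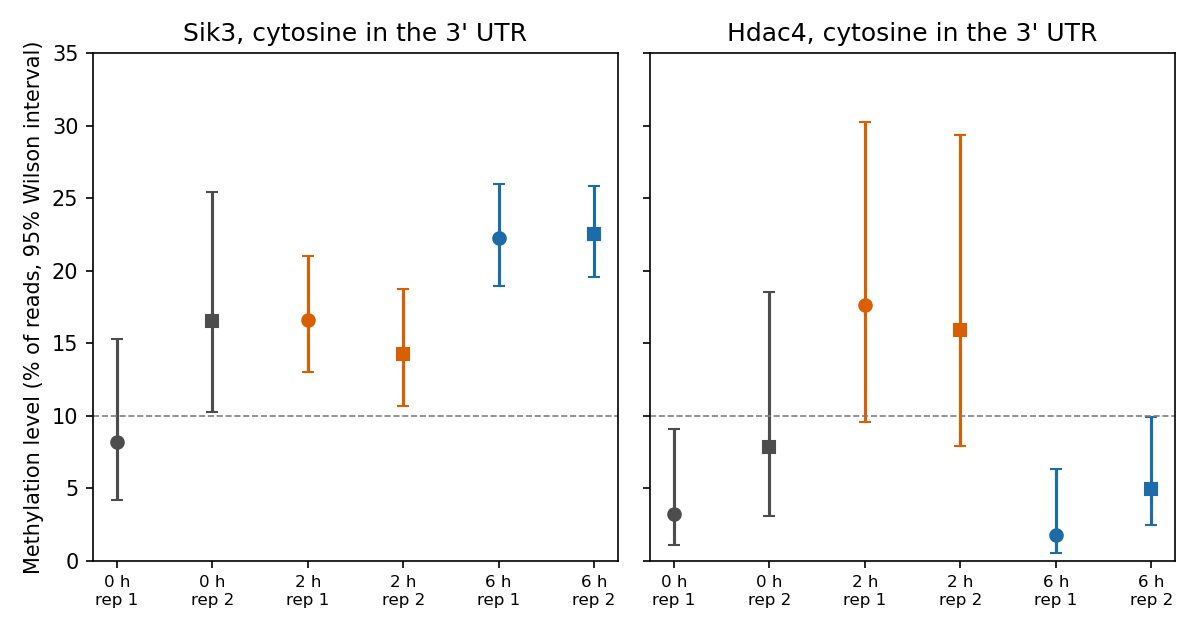
Methylation level of the Sik3 cytosine (left) and the Hdac4 cytosine (right) in each library, as percent of reads; circles are replicate 1, squares replicate 2, bars the 95% Wilson interval, and the dashed line the 10% level used to take a position as methylated. The Sik3 cytosine is highest in the 6 h libraries, at 22.2% and 22.5%, and the Hdac4 cytosine in the 2 h libraries, at 17.6% and 15.9%, through which it was taken up.

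The other 2 positions passed in a single library. The Sik1 cytosine, in the 3′ UTR, had 6 of 38 reads unconverted in 0 h replicate 1 (15.8%), 1 of 194 in 2 h replicate 2, and was not listed in the other 4. The second Sik3 cytosine, in the 3′ UTR of 1 short transcript, had 6 of 57 reads unconverted in 2 h replicate 2 (10.5%), 2 of 24 and 1 of 26 in the 0 h libraries, and 1 of 66 in 6 h replicate 1. No listed position of Sik2, Hdac5, Hdac7, or Hdac9 met the criteria. A position that is not listed has no unconverted read or fewer than 10 reads, and these cannot be told apart here.

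Most listed positions of the family carried very few unconverted reads. A single unconverted read accounted for 40.4% to 94.4% of a gene's listed positions, by gene and library. Over the 18 Hdac5 positions listed in all libraries, 0.293% and 0.238% of reads were unconverted before KCl, 0.470% and 0.444% after 2 h, and 0.342% and 0.336% after 6 h. It was highest in the 2 h libraries and was above the share over all genes in every library. These shares were not tested.

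The 3 genes whose log2 coverage over the 6 libraries was most like that of each member differed between members. They were Ppp1r15b, Mageh1, and Med26 for Sik1; Ube2v1, Ssna1, and Arhgap23 for Sik2; and Man1b1, Pak6, and Gak for Sik3. For Hdac4 they were Ssx2ip, Ubtd2, and Eps8, for Hdac5 Ran, Golph3, and Kcmf1, and for Hdac9 Iars, Rgl1, and Enah. Pearson's r lay between 0.995 and 1.000 over 6 libraries, and 222 to 480 of the 6852 other genes had an r of at least 0.95 with a member. The nearest gene to Sik1, Ppp1r15b, also had a large change at 2 h, with a log2 value of 1.97.

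Genes of the pathway around the members were called in both directions. Their counts are to be read against the shares over all 6853 tested genes, 18.3% higher and 22.6% lower at 2 h, and 33.4% higher and 35.3% lower at 6 h. Of the complex that activates SIKs, 3 of 5 genes were tested and none was called at 2 h, with a median log2 change of 0.15, and 0.16 at 6 h. At 6 h, Cab39, a scaffold of the complex, was higher than at 0 h by 0.45 ± 0.074 log2 units (edgeR adjusted p = 0.00124), and Stradb, a pseudokinase partner, fell by 1.15 ± 0.092 (edgeR adjusted p = 4.34e-05). The kinase gene Stk11 was at 0.22 and 0.16 log2 units from 0 h at 2 h and 6 h, and was not called.

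All 6 PKA subunit genes were tested, and 2 were called higher and 1 lower at 2 h than at 0 h, near the shares over all genes. Their median log2 change was 0.0453 at 2 h and 0.0445 at 6 h. Prkar2a, a regulatory subunit, rose by 0.65 ± 0.062 log2 units at 2 h and 1.63 ± 0.063 at 6 h (edgeR adjusted p = 0.000309 and 4.89e-06). Prkar1a, another regulatory subunit, rose by 0.39 and 0.45. The catalytic subunit Prkaca fell by 0.26 at 2 h, and at 6 h no subunit was called lower than at 0 h.

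Of the 14-3-3 genes, 6 of 7 were tested. At 2 h 4 were called higher, against 18.3% of all tested genes, and at 6 h 3 were, against 33.4%. None was called lower than at 0 h. Their median log2 change was 0.19 at 2 h and 0.15 at 6 h. The largest changes were those of Ywhaz, 0.48 and 0.49 log2 units, and Ywhaq, 0.34 and 0.39. Of 14 other kinases of class IIa HDACs 9 were tested. At 2 h 1 was called lower (Camk1g, which fell by 0.91), against 22.6% of all tested genes. At 6 h 4 were called lower than at 0 h, against 35.3%, and 1 higher, against 33.4%. The median log2 change of these kinases was −0.0734 at 2 h and −0.29 at 6 h. Those with the largest changes at 6 h were Camk2g, which fell by 0.74, Camk1d, which fell by 0.66, and Mark2, which fell by 0.65 log2 units.

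Among the targets, Crtc1 was the CRTC gene that could be tested, and it fell by 0.54 ± 0.093 log2 units at 2 h and by 1.35 ± 0.094 at 6 h (edgeR adjusted p = 0.00342 and 2.53e-05). Among the MEF2 factors, Mef2d rose by 0.66 ± 0.063 log2 units at 6 h (edgeR adjusted p = 8.96e-05). The corepressor genes Hdac3 and Ncor1 and the factors Mef2a and Mef2c were not called against 0 h at either time. Of the other HDACs, 4 of 6 were tested and none was called at 2 h. At 6 h Hdac11 fell by 0.42 and Hdac6 rose by 0.22 log2 units, and Hdac1 and Hdac2, of class I, were at 0.0462 and −0.0546. The median over all 6853 tested genes was −0.0153 at 2 h and −0.00616 at 6 h.

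**Figure D4:**
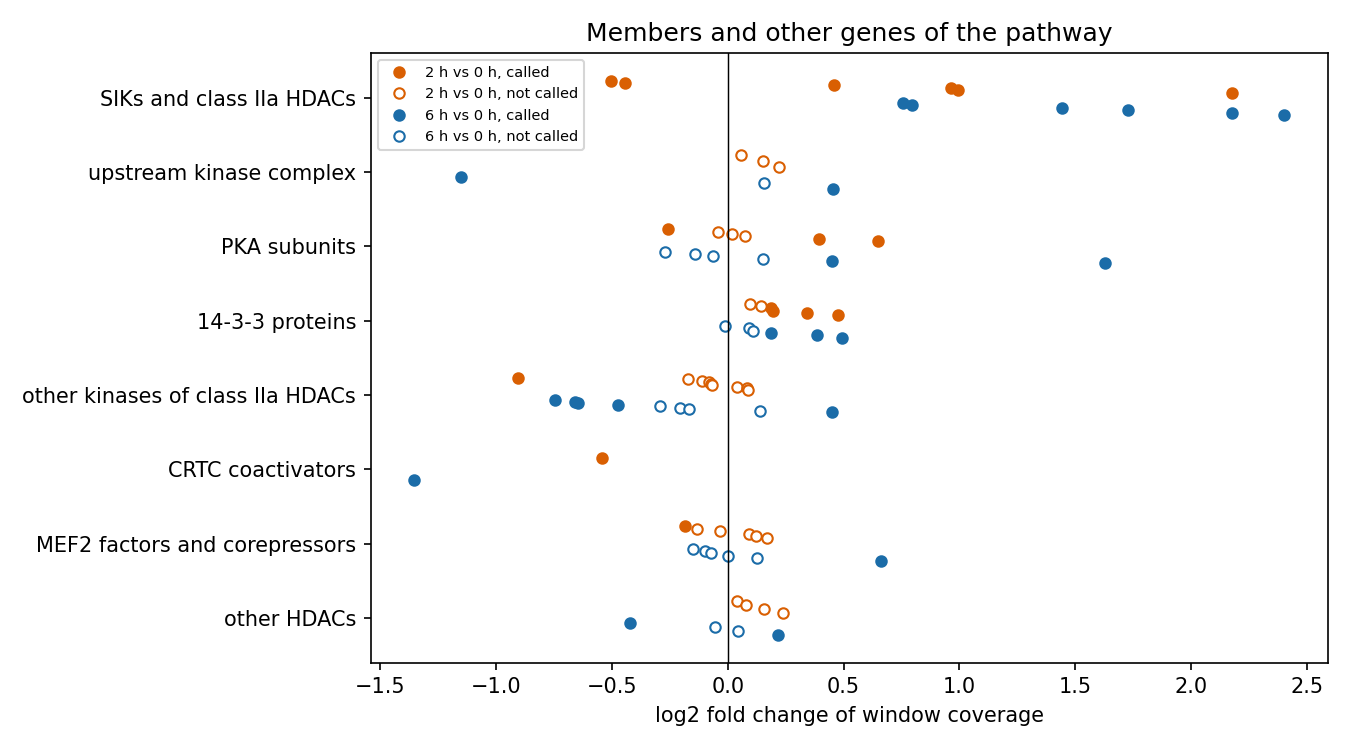
Log2 fold change of window coverage over 0 h at 2 h (orange) and 6 h (blue), for the 6 tested members and the tested genes of 7 lists around them; filled points passed an adjusted p of 0.05, open points did not. At 6 h the members lie between 0.76 and 2.40, and 1 of the listed genes, Prkar2a at 1.63, lies within that range.

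The promoters of the members were taken from RefSeq (GRCm38.p6) as 250 bases before to 50 after each start. They were searched for TGACG, the core of a CREB site, on both strands, and for the palindrome CTANNNNTAG. That pattern is looser than a MEF2 site, which has A or T at all 4 middle bases. Sik1 was not in the table. TGACG was present in the promoters of Sik2, Sik3, Hdac4, and Hdac5, and in none of the 4 of Hdac7 or the 2 of Hdac9. It was present in 20.8% of all 32851 promoters. CTANNNNTAG was present in the promoter of Hdac5 and in 1 of the 2 of Hdac9, against 3.69% of all. The stretches below, with matches in capitals, are those of the 2 slower kinases and of the deacetylases with a CTANNNNTAG match. The Sik2 stretch crosses the start. The middle 4 bases of the match are TTTT in Hdac5 and GCTT in Hdac9, so the Hdac9 match is not of the MEF2 form.
Sik3, chr9:46012677-46012777, plus strand: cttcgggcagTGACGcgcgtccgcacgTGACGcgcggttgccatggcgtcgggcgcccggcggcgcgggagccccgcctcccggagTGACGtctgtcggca
Sik2, chr9:51009047-51009084, minus strand: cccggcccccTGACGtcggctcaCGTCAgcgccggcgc
Hdac5, chr11:102230173-102230202, minus strand: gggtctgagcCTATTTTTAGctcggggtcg
Hdac9, chr12:34528902-34528931, minus strand: tggattatcaCTAGCTTTAGccaacttgag

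Hdac4, with the same dip and late rise as Hdac9, held 3 TGACG matches and no CTANNNNTAG. Hdac9 held CTANNNNTAG and no TGACG, and Hdac5 held both. The relation of these matches to the time courses was not tested. A match is a stretch of letters, and nothing about the binding of a factor was measured.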

How the data were processed

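RNA bisulfite sequencing of poly(A) RNA was done in 6 libraries. The authors trimmed the reads, aligned them with meRanTK to GRCm38 (mm10), and deposited 1 list of cytosines per library; R 4.1.1 is named in the submitters' processing notes. The deposited read counts per position (coverage, unconverted reads, and reads with another base) have no normalization. The deposited methylation level is a fraction, unconverted reads over unconverted and converted reads, and was within 0.001 of that at every position. Positions have a lowest coverage of 10, at least 1 unconverted read, and a highest of 49518. Intervals cover counting error only, since reads without molecular identifiers are not independent molecules.

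The members and gene lists were chosen with earlier results of these data known. Positions with reference C and state M were used; 96041 with several gene names and 145188 with none were left out of gene sums. Gene coverage was to be summed over positions listed in all 6 libraries, at least 5 per gene. Only Hdac5 reached that, so windows of 100 bases were added after seeing the data. A listed position needs an unconverted read, so listed windows favour well covered parts, and 1 read counts at several positions. Both were tested with edgeR's quasi-likelihood test (TMM scaling, filterByExpr, all libraries in 1 fit, Benjamini-Hochberg, adjusted p of 0.05). The SE is the log2 fold change over the root of F. The 3′ over 5′ ratio was tested with limma over genes with at least 6 windows (10 positions for the planned form). Positions with coverage of at least 10 in the 4 libraries compared, methylated in both replicates of a time, were tested with two-sided Fisher's exact tests on summed reads. Named genes were the 7 members, up to 3 called genes per list with the largest change, and the 3 genes with the highest Pearson's r to each member. Not every listed gene is reported here. Segments came from GENCODE M21. The tests were tested on simulated data with known changes. R 4.3.3, edgeR 4.0.16, limma 3.58.1, DESeq2 1.42.0, scipy 1.17.1, pandas 2.3.3, numpy 2.4.6, and matplotlib 3.10.9 in Python 3.11.15 were used.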

Additional observations from a re-analysis of the deposited data

How the results depend on the processing

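The window coverage changes of the 6 members kept their direction in all 240 values under other settings, and their call in 239; the exception was Hdac9 at 2 h without 0 h replicate 1, given above. The window measure and all its settings were chosen after seeing the data. Main counts of genes called at 2 h against 0 h, 6 h against 0 h, and 6 h against 2 h were 2799, 4709, and 4518 over windows and 740, 1629, and 1359 over positions listed in all libraries. With at least 20 windows or positions, which tests fewer genes, they were 1101, 1821, and 1713, and 446, 962, and 757. With neither the expression filter nor a minimum number of positions, they were 1329, 2890, and 2573, and over all listed positions 395 were called at 2 h. Over all listed positions Hdac5 was at log2 0.74 at 2 h (edgeR adjusted p = 0.0865) and at 0.64 from 2 h to 6 h (edgeR adjusted p = 0.0753). Leaving out 1 library gave 1690 to 3180, 3862 to 5179, and 3603 to 4817 over windows, and 290 to 884, 1184 to 1847, and 833 to 1514 over positions; the 2 lowest at 2 h came without a 0 h library, and the lowest 2 from 2 h to 6 h over positions without a 6 h library. Under scaling by total coverage the split at 2 h moved from 1253 higher and 1546 lower to 830 and 2160.

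Same-numbered replicates did not deviate together at every pair of times (r of replicate differences 0.37, −0.0851, and −0.12 over 6853 genes), so the numbers were not taken to pair the libraries. The replicate block gave 2725, 4713, and 4520 calls over windows and 695, 1614, and 1335 over positions, and the block with the 6 h numbers crossed gave 4690 from 2 h to 6 h. For sites, the block gave 237, 199, and 421 calls against 261, 199, and 332, and it changed no call of a member given above.

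For single sites, limma called 0 in each comparison, with 217, 130, and 184 at an unadjusted p under 0.05. With positions methylated in at least 1 library 542 were called from 2 h to 6 h. Leaving out 1 library gave 168 to 255, 134 to 487, and 207 to 584; 487 and 584 came without 6 h replicate 2, 168 without 0 h replicate 1, and 207 without 6 h replicate 1. Some differences of the member sites changed sign on leaving out 1 library. The log2 odds ratio was −1.29 to 0.0318 for Hdac4 at 6 h against 0 h, and −0.14 to 0.97 for Sik3 at 2 h against 0 h.

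For the ratio along the transcript, main counts were 1, 75, and 30 over windows and 0, 3, and 0 over positions. They were 8, 122, and 63 with at least 12 windows, 2 at 2 h and 14 from 2 h to 6 h with only the outer windows of each side, and 19 from 2 h to 6 h under the block. Leaving out 1 library gave 0 to 2, 4 to 69, and 0 to 7. Over positions, a comparison of the outer positions gave 11 at 6 h and 3 from 2 h to 6 h, the block gave 0 at 6 h, and leaving out 1 library 0 to 9 and 0 to 1. Ratios near 0, none called, changed sign. With the outer windows or positions, Sik1 was at −0.0196, Sik2 at 0.0199, and Hdac4 at 0.23 at 2 h, Hdac5 at 0.0937 over windows and 0.0752 over positions, and Hdac9 at −0.16 at 6 h, and Sik2 at −0.0026 from 2 h to 6 h. On leaving out 1 library the ranges at 2 h were −0.24 to 0.26 for Sik1, −0.10 to 0.0712 for Sik2, and −0.22 to 0.22 for Hdac4. At 6 h they were −0.42 to 0.0803 for Sik1, −0.0471 to 0.12 for Sik2, −0.20 to 0.24 for Hdac4, −0.16 to 0.18 for Hdac9, and −0.0624 to 3.19e-05 for Hdac5 over positions. From 2 h to 6 h that of Hdac4 was −0.10 to 0.15. The cause of these moves was not tested.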
